A study of Mus musculus with 10 samples.

Results

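Microglia owe their identity to a small set of transcription factors, of which 9 were followed here by name: Sall1, Sall3, Mef2a, Mef2c, Maf, Runx1, Irf8, Spi1 and Cebpa. They are 9 of the 24453 gene symbols in the deposited table, and all 9 were listed and passed the filter on low values (at least 10 RPM in at least 2 of the 10 libraries). RPM expresses the reads of a gene relative to the reads of its library.

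RNA came from brain microglia of untreated C57BL/6 mice, pulled out with magnetic beads. Microglia are the macrophages that live in brain tissue. The 10 libraries formed 4 groups, with 3 from mice aged 15 months (aged), 3 from mice aged 10 weeks (young), 2 labelled Rab7 deltaMG and 2 labelled Rab7 control, the last 4 from mice aged 3 months. The series calls the deltaMG group null mutants of Rab7, a GTPase of late endosomes and lysosomes. The labels name neither the Cre line, nor the floxed allele, nor the genotype of the controls, and they do not say whether replicates came from separate animals. The p-values therefore measure the spread between libraries, part of which may be technical.

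Spi1, which encodes the ETS factor PU.1, and its partners Irf8, Runx1 and Cebpa are needed to make cells of the myeloid lineage, and PU.1 opens most macrophage enhancers. Sall1 and its paralogue Sall3 encode zinc finger proteins that, among macrophages, are largely restricted to microglia. In microglia Sall1 represses inflammatory genes and sustains the resting programme. Mef2a, Mef2c and Maf are active in mature microglia, where MEF2 proteins bind many of the enhancers that set microglia apart from other macrophages.

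The depth behind the scaling was 6098305 to 9907857 reads per library, and the listed genes held 18.7% to 23.5% of it. Rab7 was not lower in the libraries labelled deltaMG, so it gives no check of the labels. It was at 64.2 and 67.5 RPM under the control label and at 72.2 and 79.4 RPM under the deltaMG label, with a limma adjusted p of 0.668. The groups are therefore called the libraries labelled control and labelled deltaMG, and every direction between them rests on those labels. The young libraries carried Xist, the RNA of the inactive X chromosome, at 1715 to 1771 RPM and the aged at no more than 0.940 RPM, while 4 Y-linked genes summed to at most 0.288 RPM in the young and to 35.7 to 48.7 RPM in the aged. Age and sex therefore cannot be told apart, and 'with age' below means aged against young libraries, which also differ in sex. All 4 libraries of the other comparison held both Xist and Y-linked transcripts. Xist was at 924 to 1410 RPM under the control label and 1171 to 1562 RPM under the deltaMG label. The Y-linked sums were 19.3 to 25.8 RPM and 9.11 to 20.3 RPM. Both ranges overlapped, and whether the mix of sexes differed was not tested.

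Aged replicate 3 stood apart in blood cell transcripts. Its 14 neutrophil markers summed to 4580.3 RPM, against 988 and 1729 RPM in the other aged and 568 to 1477 RPM in the young libraries. Its 8 monocyte markers summed to 835 RPM, against 198 and 285 RPM in the other aged and 84.2 to 222 RPM in the young libraries. The neutrophil sum was 471 to 712 RPM in the libraries labelled control and 1231 to 1855 RPM in those labelled deltaMG, without overlap. The 10 microglial markers were all detected and summed to 3161 to 5258 RPM per library, above the neutrophil sum in every library except aged replicate 3. Neuronal, endothelial, B cell and T cell markers summed to at most 7.75 RPM each, with the T cell gene Cd3g and the endothelial gene Cldn5 listed at 0 in all libraries. Astrocyte markers summed to at most 55.1 RPM, oligodendrocyte markers to 27.8 RPM, and markers of border macrophages to 83.9 RPM. The last was in aged replicate 3, and aged replicates 1 and 2 were at 52.5 and 31.7 RPM. The libraries labelled control and deltaMG were at 38.5 to 49.8 RPM.

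**Figure D1:**
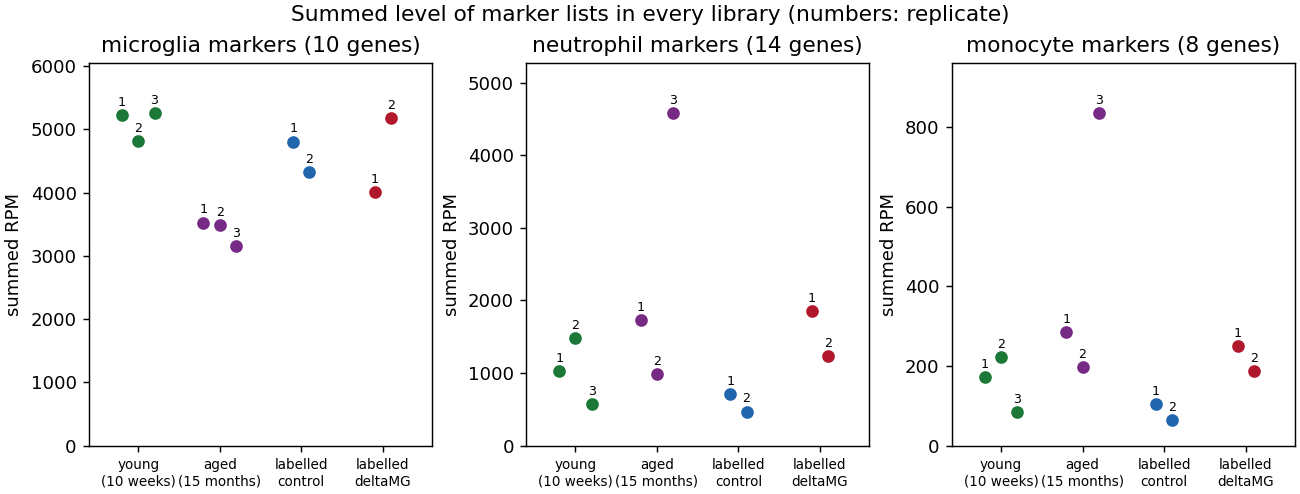
Summed RPM of microglia, neutrophil and monocyte markers in each library (points, numbered by replicate). Aged replicate 3 was highest for neutrophil and monocyte markers, and all 3 aged libraries (3161 to 3527 RPM) lay below all other libraries for microglial markers.

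Per kilobase of exon, Sall1 was the most abundant of the 9 factors. Its mean over the 10 libraries was 39.9 RPM per kilobase ± 7.33 (SD, n = 10), and its lowest library, at 28.5, was above the highest library of every other member. Maf at 18.4 ± 3.07 and Mef2a at 18.3 ± 2.16 RPM per kilobase came next and overlapped each other. Cebpa, Mef2c, Irf8, Runx1, Spi1 and Sall3 followed from 10.3 down to 5.76 RPM per kilobase, and the ranges of neighbours in that order overlapped throughout. The length was the union of all annotated exons, which can understate genes with many isoforms. It came to 15.7 kilobases for Mef2c and 14.7 for Mef2a, against 5.265 for Sall1. Without division by length Mef2a was the highest, at a mean of 269 RPM against 210 RPM for Sall1. The first place of Sall1 therefore depends on the length used.

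In RPM, without division by length, the 9 factors varied little across libraries. The ratio of the highest to the lowest library ran from 1.28 for Runx1 to 2.08 for Spi1. The lowest library was aged replicate 3 for Sall1, Sall3, Mef2a and Mef2c, aged replicate 1 for Irf8 and Runx1, and aged replicate 2 for Maf. Spi1 went the other way, with its highest value in aged replicate 3. The members rested on 95 to 2465 reads per library, with Spi1 and Cebpa the shallowest.

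**Figure D2:**
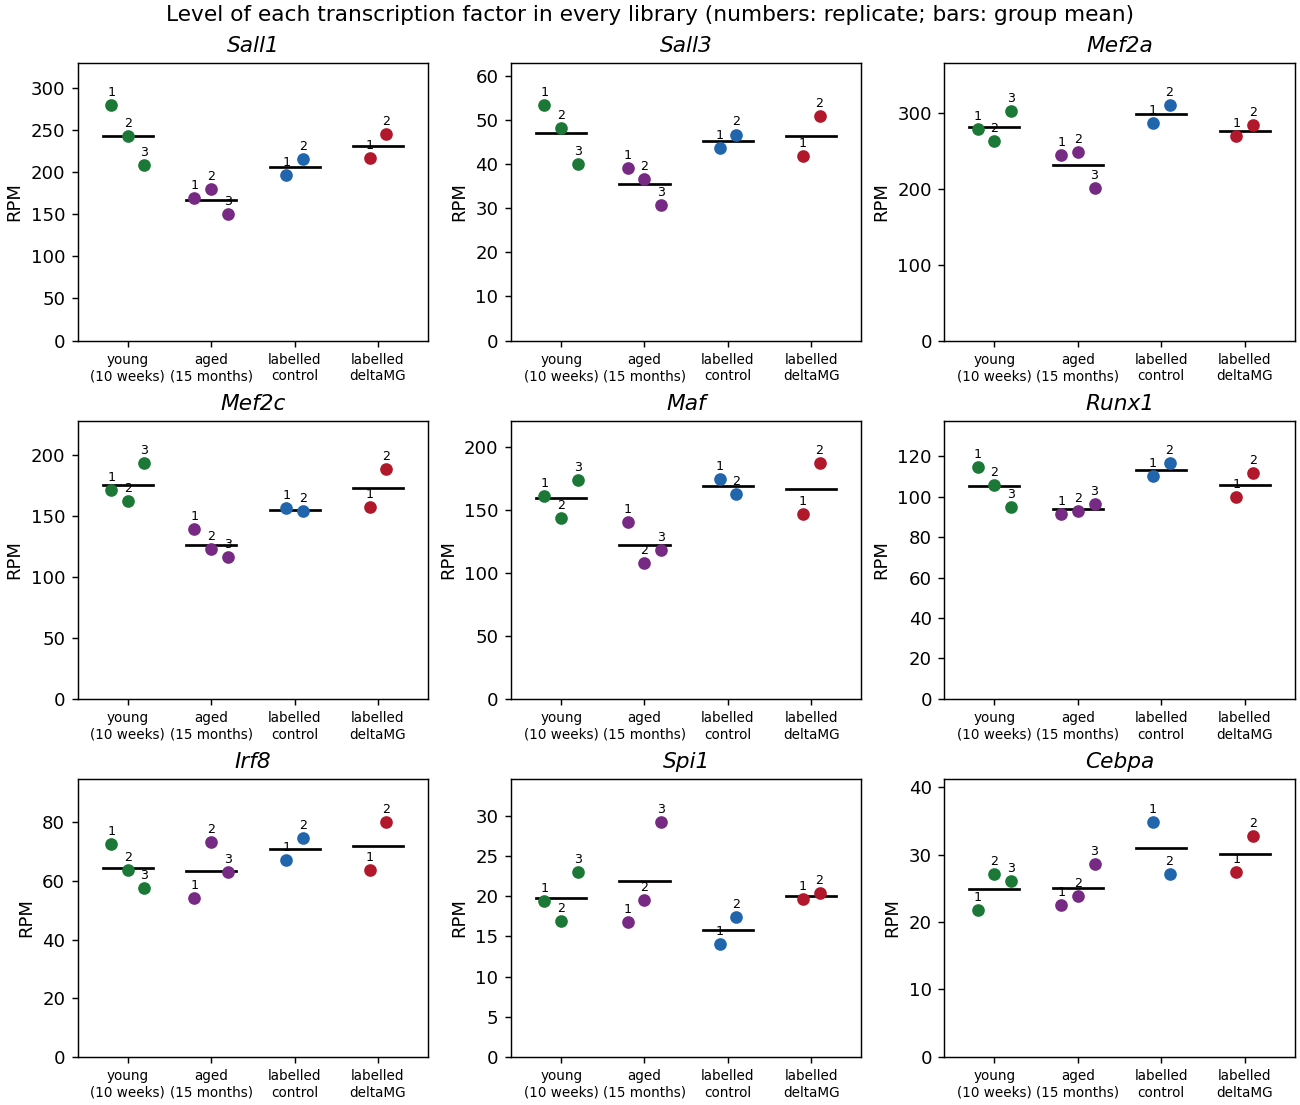
RPM of each factor in every library (points, numbered by replicate) with the group mean (bar), on axes that start at 0. For Sall1, Sall3, Mef2a, Mef2c and Maf every aged library lay below every young library, whereas the groups overlapped for Runx1, Irf8, Spi1 and Cebpa.

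The first comparison set mice aged 15 months against mice aged 10 weeks. Sall1 and Mef2c fell in aged libraries, and none of the 9 rose. The test was limma on log2(RPM + 1), adjusted by Benjamini-Hochberg over 4151 genes, in which 2.99% of all tested genes were called lower, 3.16% higher and 6.14% in either direction at an adjusted p under 0.05. Ranges were separated for 5 of the 9 members, all lower in aged libraries, where 15.5% of all tested genes were separated in that direction and 8.41% in the other. The log2 fold change was negative for 7 and positive for 2 of 9, against 57.2% and 42.8% of all tested genes, and its median over the members was -0.28, against -0.05 over all tested genes. Fold changes on this scale understate the change of low genes.

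Sall1 (ENSMUSG00000031665.7, chromosome 8, 89027235 to 89044162, minus strand, GRCm38) was at 279, 242 and 208 RPM in young replicates 1, 2 and 3. In aged replicates 1, 2 and 3 it was at 169, 179.6 and 149.97 RPM. All aged libraries were lower than all young ones, with the smallest gap between young replicate 3 and aged replicate 2. The mean fell from 243 RPM ± 35.5 to 166 RPM ± 15.0 (SD, n = 3 each), which is -0.54 on the log2 scale (SE 0.13, 95% interval -0.81 to -0.26, limma adjusted p = 0.0261). The call was lost without young replicate 1 (limma adjusted p = 0.138), young replicate 2 (0.0752), aged replicate 1 (0.0627) or aged replicate 3 (0.0821), with log2 fold changes of -0.55 to -0.43.

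Mef2c (ENSMUSG00000005583.16, chromosome 13, 83504034 to 83667080, plus strand), a MADS-box factor that restrains the microglial response to inflammation, was at 172, 162 and 193 RPM in the young libraries. It was at 139, 123 and 116 RPM in the aged libraries, again without overlap. The mean fell from 176 RPM ± 15.9 to 126 RPM ± 11.7 (SD, n = 3 each), which is -0.47 on the log2 scale (SE 0.12, 95% interval -0.73 to -0.22, limma adjusted p = 0.0353). The call was lost without young replicate 1 (limma adjusted p = 0.106), young replicate 2 (0.0545), young replicate 3 (0.114) or aged replicate 3 (0.0968). It was also lost when a library outside the comparison was left out, without labelled control replicate 1 (0.0591) or replicate 2 (0.0595).

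The median microglial marker moved by a like amount, but not every marker did. P2ry12 was at -0.86 on the log2 scale, whereas Aif1 and C1qa were at 0.06 and 0.03. The 10 markers, which do not include the 9 factors, summed to 4809 to 5258 RPM in young and 3161 to 3527 RPM in aged libraries, with a median log2 fold change of -0.51 and 4 of 10 called lower. When each library was scaled to the geometric mean of these markers, a setting chosen after the data were seen, the log2 fold change was -0.11 for Sall1 (limma adjusted p = 0.527) and -0.05 for Mef2c (0.741), and neither was called. That scaling moved the median of all tested genes from -0.05 to 0.35. It takes away any fall shared with these markers, 8 of which are also on a list of known targets of the factors. The lost calls therefore cannot separate the makeup of the isolate from a change within microglia. In RNA from a bulk isolate, fewer cells of a type and less RNA per cell cannot be told apart. With a neutrophil score per library added to the model, the values were -0.49 for Sall1 (limma adjusted p = 0.0510) and -0.38 for Mef2c (0.122). Beyond these fits, the part of the makeup of the isolate in both falls was not tested.

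**Figure D3:**
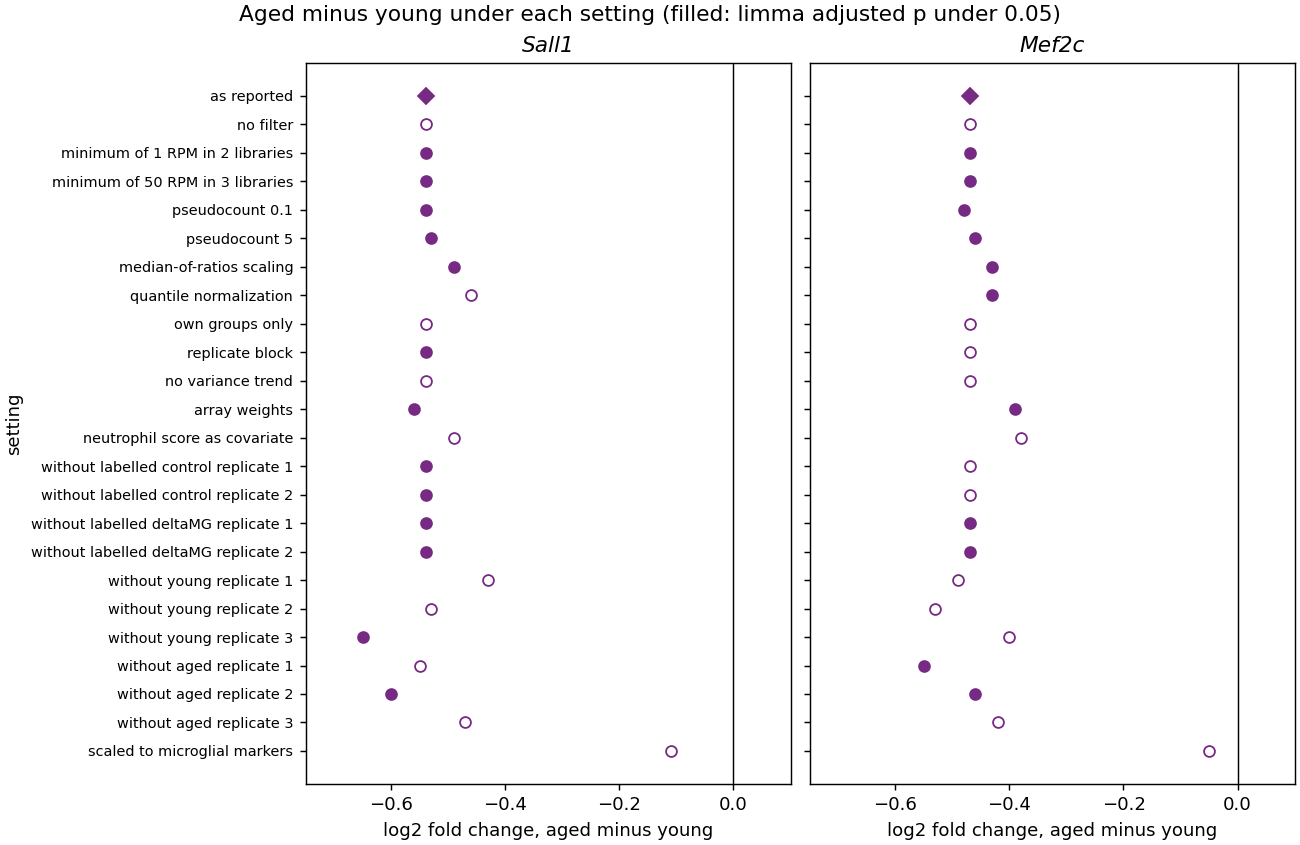
Log2 fold change of Sall1 and Mef2c, aged minus young (x axis), under each setting (y axis). Filled symbols passed a limma adjusted p of 0.05, and the diamond is the value as reported. All values were negative, from -0.65 to -0.11 for Sall1 and from -0.55 to -0.05 for Mef2c, and scaling to microglial markers gave the value nearest 0 for each.

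The remaining members of the mature microglial set were lower in each aged library but did not pass the test. Sall3 was at 53.3, 48.0 and 40.0 RPM in the young and at 39.2, 36.5 and 30.7 RPM in the aged libraries, so that the groups were separated by less than 1 RPM. The log2 difference was -0.40 (95% interval -0.71 to -0.08, limma adjusted p = 0.125). Maf, a bZIP factor of mature macrophages, was at 161, 143 and 173 RPM in the young and at 140.1, 107.5 and 118 RPM in the aged libraries. The highest aged library lay just below the lowest young one, and the log2 difference was -0.39 (95% interval -0.68 to -0.10, limma adjusted p = 0.105). Mef2a was at 279, 263 and 303 RPM in the young and at 245, 249 and 202 RPM in the aged libraries. These groups were separated too, by a log2 difference of -0.28 (95% interval -0.53 to -0.03, limma adjusted p = 0.174). Without aged replicate 3 these 3 values were -0.30, -0.37 and -0.19.

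The lineage factors of the wider myeloid family overlapped between young and aged libraries. Runx1, the DNA-binding partner of Cbfb, was at 115, 106 and 94.998 RPM in the young and at 91.3, 93.2 and 96.6 RPM in the aged libraries, a log2 difference of -0.16 with a 95% interval of -0.41 to 0.08. Irf8, an interferon regulatory factor that pairs with PU.1 on DNA, was at 72.5, 63.6 and 57.4 RPM in the young and at 54.1, 73.2 and 63.1 RPM in the aged libraries, a log2 difference of -0.03 with a 95% interval of -0.34 to 0.28. Cebpa, best known as a granulocyte and monocyte lineage factor, was at 21.7, 27.1 and 26.1 RPM in the young and at 22.6, 23.8 and 28.6 RPM in the aged libraries, a log2 difference of 0.00 with a 95% interval of -0.33 to 0.33. The limma adjusted p was 0.464, 0.943 and 0.998 for these 3 genes. None of these 3 intervals reached the -0.54 of Sall1, but all 3 overlapped its interval of -0.81 to -0.26. Differences between genes were not tested.

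Spi1 was at 19.4, 16.9 and 23.0 RPM in the young and at 16.8, 19.6 and 29.3 RPM in the aged libraries. Aged replicate 3 was the highest of all 10 libraries here and in the sums of neutrophil and monocyte markers, cells that express Spi1 as well. The log2 difference was 0.11 (limma adjusted p = 0.803). Leaving aged replicate 3 out turned it to -0.11, and adding the neutrophil score gave 0.03. The part of blood cells in this value was not tested beyond these fits.

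Promoters are shown for Sall1, Mef2c and Mef2a, whose ranges were separated with age, and for Irf8 and Cebpa, whose ranges overlapped, so that both kinds can be compared. A RefSeq window (GRCm38.p6) was found for 6 of the 9 members. The 5 shown had a window at the annotated start of the gene. Sall1 and Mef2c had 3 windows each and Irf8 had 2, and only the window at that start is described. The 250 bases before the start site are given 5′ to 3′ in the direction of the gene. Capitals mark the ETS core GGAA or its reverse complement TTCC, and the TATA box TATAAA or its reverse complement TTTATA, as letters found on either strand.
Sall1, chr8:89044163-89044412, minus strand: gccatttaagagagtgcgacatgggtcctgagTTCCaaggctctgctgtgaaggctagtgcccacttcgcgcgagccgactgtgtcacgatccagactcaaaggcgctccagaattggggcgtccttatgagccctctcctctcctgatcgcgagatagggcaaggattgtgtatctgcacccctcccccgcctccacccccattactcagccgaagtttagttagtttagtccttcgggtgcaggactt
Mef2c, chr13:83503784-83504033, plus strand: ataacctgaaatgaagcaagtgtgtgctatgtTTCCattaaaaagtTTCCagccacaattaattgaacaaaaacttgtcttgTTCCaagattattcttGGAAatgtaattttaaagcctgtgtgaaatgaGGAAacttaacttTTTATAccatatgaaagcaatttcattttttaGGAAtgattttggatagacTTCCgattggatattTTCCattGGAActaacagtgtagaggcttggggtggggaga
Mef2a, chr7:67372859-67373108, minus strand: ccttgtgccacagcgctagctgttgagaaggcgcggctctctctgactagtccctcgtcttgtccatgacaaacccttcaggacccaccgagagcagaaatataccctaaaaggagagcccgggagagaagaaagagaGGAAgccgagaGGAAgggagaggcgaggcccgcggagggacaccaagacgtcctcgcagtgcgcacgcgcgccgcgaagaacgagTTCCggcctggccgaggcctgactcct
Irf8, chr8:120736108-120736357, plus strand: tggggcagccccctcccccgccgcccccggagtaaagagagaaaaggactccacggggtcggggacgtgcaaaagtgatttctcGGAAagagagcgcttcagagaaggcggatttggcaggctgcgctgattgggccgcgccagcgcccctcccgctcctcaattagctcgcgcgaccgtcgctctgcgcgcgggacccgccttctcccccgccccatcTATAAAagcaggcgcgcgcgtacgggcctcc
Cebpa, chr7:35119043-35119292, plus strand: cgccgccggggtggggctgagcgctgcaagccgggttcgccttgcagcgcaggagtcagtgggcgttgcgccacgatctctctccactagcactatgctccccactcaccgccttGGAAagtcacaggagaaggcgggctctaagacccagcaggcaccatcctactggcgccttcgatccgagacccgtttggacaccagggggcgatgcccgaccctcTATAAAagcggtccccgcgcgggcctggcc
The Mef2c window held 9 matches to the ETS core and had a GC content of 33.6%. The Sall1 window held 1 match with a GC content of 56.4%, Mef2a held 3 with 61.6%, and Irf8 and Cebpa held 1 each with 67.2% and 66.4%. The ETS core is in 93.4% of the 32851 RefSeq windows of this length, so its presence sets none of them apart. How many windows hold 9 or more matches, or have a like GC content, was not counted, so the Mef2c values are description only. Irf8 and Cebpa each carried TATAAA on the gene strand, starting 31 and 30 bases before the start site, and Mef2c carried its reverse complement 107 bases before. The TATA box is in 12.4% of all windows on either strand. None of the 5 windows held the longer motifs GAGGAAGT of PU.1 (in 2.44% of all windows), GGAA, 2 free bases and GAAA of ETS and IRF pairs (2.3%), CTA, 4 free bases and TAG of MEF2 (3.2%), TGTGGT of RUNX (14.0%), TTGCNNAA of C/EBP (9.56%) or TGCTGA of MAF (16.1%). The PU.1 and the paired motif contain the ETS core.

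The second comparison set the libraries labelled deltaMG against those labelled control. None of the 9 passed the test, where 3.78% of all tested genes were called, 1.2% higher and 2.58% lower. None of the 9 had an unadjusted p under 0.05 either, against 18.8% of all tested genes. The log2 fold change was negative for 4 and positive for 5 of 9, against 52% and 48% of all tested genes, and its median was 0.01 over the members and -0.02 over all tested genes. Ranges were separated upwards for Sall1, Mef2c and Spi1 and downwards for Mef2a, which is 3 and 1 of 9, against 25.2% and 26.6% of all tested genes. The 10 microglial markers had a median log2 fold change of -0.40, with 1 called higher and 1 lower. Their sums overlapped, at 4332 to 4807 RPM under the control label and 4002 to 5171 RPM under the deltaMG label. Scaled to these markers, the median was 0.22 over the members and 0.18 over all tested genes, and no member was called.

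Sall1 was at 197 and 215 RPM under the control label and at 216 and 245 RPM under the deltaMG label. These ranges barely cleared each other, and the log2 difference was 0.16 (95% interval -0.18 to 0.50, limma adjusted p = 0.656). Mef2c was at 156 and 154 RPM under the control label and at 158 and 189 RPM under the deltaMG label. This came to 0.15 on the log2 scale (95% interval -0.17 to 0.47, limma adjusted p = 0.646), with most of it from deltaMG replicate 2. Spi1 was at 14.1 and 17.5 RPM under the control label and at 19.7 and 20.4 RPM under the deltaMG label. Its log2 difference of 0.33 was the furthest from 0 among the members (95% interval -0.18 to 0.84, limma adjusted p = 0.507). Neutrophil sums were higher under the deltaMG label too, and with the neutrophil score the difference was 0.21. The part of blood cells in it was not tested further.

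Mef2a was at 288 and 310.2 RPM under the control label and at 269.9 and 284 RPM under the deltaMG label, so both deltaMG libraries were lower. The log2 difference was -0.11 (limma adjusted p = 0.756) and turned to 0.10 with the neutrophil score. Sall3, Irf8, Runx1, Maf and Cebpa overlapped between these groups. Sall3 was at 43.7 and 46.7 RPM under the control label and at 41.8 and 50.9 RPM under the deltaMG label, and Irf8 at 67.2 and 74.7 RPM against 63.7 and 80.3 RPM. For both, the deltaMG libraries lay on either side of the controls. Runx1 was at 110.3 and 116 RPM against 99.8 and 112 RPM, Maf at 175 and 163 RPM against 147 and 187 RPM, and Cebpa at 34.9 and 27.1 RPM against 27.5 and 32.8 RPM. Their log2 differences ran from -0.10 for Runx1 to 0.03 for Sall3, with limma adjusted p of 0.777 to 0.981. With 2 libraries per group, the lowest bound of any member's 95% interval was -0.44 (Cebpa) and the highest 0.84 (Spi1).

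**Figure D4:**
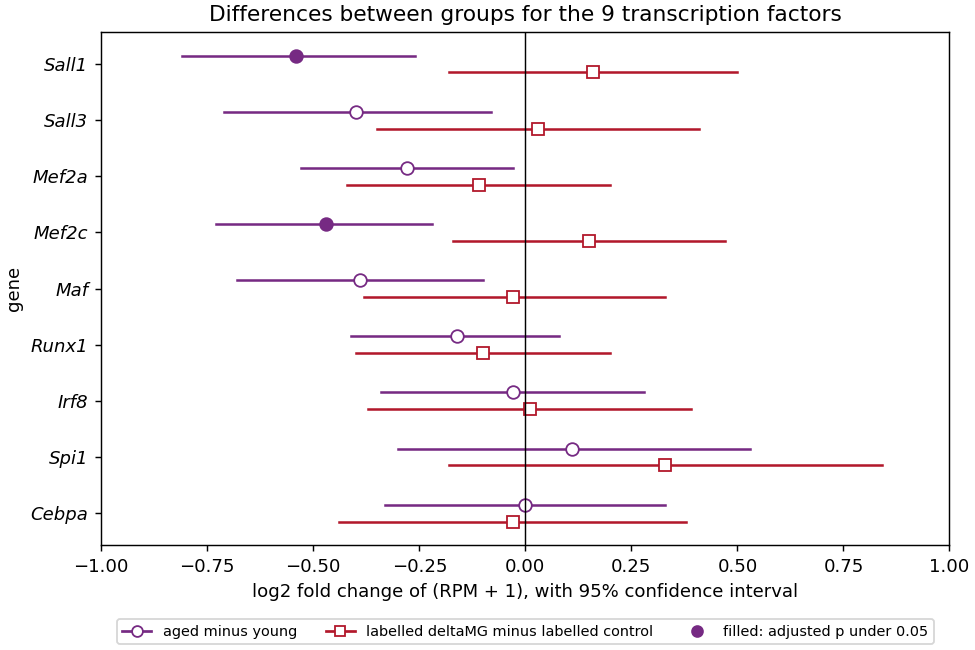
Log2 fold change (x axis) with its 95% confidence interval (line) for each factor (y axis), aged minus young as circles and labelled deltaMG minus labelled control as squares. Filled symbols passed a limma adjusted p of 0.05, which only Sall1 and Mef2c in the ageing comparison did.

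Whether the difference between the libraries labelled deltaMG and control itself differed from the difference between aged and young was tested in the same fit. None of the 9 members passed, where 4.79% of all tested genes did, 2.12% with a positive and 2.67% with a negative difference. The sign was positive for 8 and negative for 1 of 9, against 52.2% and 47.8% of all tested genes. The 2 comparisons share no library, and the aged and young libraries also differ in sex. Sall1 and Mef2c had the smallest p among the members. The difference of effects was 0.70 for Sall1 (95% interval 0.26 to 1.13, limma adjusted p = 0.0654) and 0.63 for Mef2c (95% interval 0.22 to 1.03, limma adjusted p = 0.0781). Sall1 passed in 5 and Mef2c in 2 of 22 other settings. For Sall1 these included leaving out young replicate 3 (limma adjusted p = 0.0345) or aged replicate 2 (0.0482). For both they included a minimum of 50 RPM (0.0488 and 0.04998) and the neutrophil score as a covariate (0.0173 and 0.0190). Among the alternatives that kept all libraries, the difference went down to 0.48 for Sall1 and 0.41 for Mef2c. The limma adjusted p there went up to 0.262 and 0.252.

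Most paralogues and partners of the members were below the filter, and none was called. Of 21 related myeloid lineage factors, such as Mef2d, Cbfb, Irf5 and the remaining C/EBP genes, 7 passed the filter and none was called in either comparison. With so few genes this says little, since 6.14% and 3.78% of all tested genes were called. The median log2 fold change of the 7 was -0.19 for aged minus young and -0.18 for labelled deltaMG minus labelled control. Cbfb, the partner of Runx1, had a log2 fold change of 0.24 in aged (limma adjusted p = 0.374) and of -0.38 in the libraries labelled deltaMG (0.270).

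Among 28 ETS and haematopoietic factors, 19 were tested and none was called in either comparison, with medians of -0.01 and -0.02. The shares called over all tested genes were 6.14% and 3.78%. Ets1, an ETS factor best known from lymphocytes, was at 32.1 to 34.5 RPM in young and 18.6 to 26.8 RPM in aged libraries, so that every aged library was lower. The log2 difference was -0.51 (limma adjusted p = 0.0785). Ets2 was at 10.0 and 14.6 RPM under the control label and at 25.5 and 26.6 RPM under the deltaMG label. This was 1.05 on the log2 scale (limma adjusted p = 0.0718). Between aged and young libraries it differed by 0.72 (limma adjusted p = 0.103), and its highest library was aged replicate 3, at 33.4 RPM.

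Of 42 factors that respond to the macrophage environment, 26 were tested, with medians of 0.05 and 0.06. None was called with age, and Hif1a was the only one called between the other groups. Hif1a, the oxygen-regulated subunit of the hypoxia factor, was at 82.0 and 70.1 RPM under the control label and at 17.6 and 23.7 RPM under the deltaMG label. It was 3.59-fold lower under the deltaMG label, or -1.84 on the log2 scale (SE 0.20, limma adjusted p = 0.000144). The young libraries were at 25.4 to 28.2 RPM and the aged at 22.9 to 32.3 RPM, so that both control libraries stood above the other 8. The call held when any of the 10 libraries was left out, with limma adjusted p of at most 0.0140.

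Genes of the proteins that SALL and MEF2 factors recruit gave 1 call with age and none between the labelled groups. Over all tested genes, 6.14% and 3.78% were called, and 1 call among so few genes is near the first share. Of 13 NuRD corepressor genes, a chromatin complex bound by SALL proteins, 6 were tested, with medians of 0.00 and -0.11. Mbd2, its methyl-DNA binding subunit, rose from 14.0, 12.6 and 12.2 RPM in the young to 23.0, 18.6 and 32.6 RPM in the aged libraries. All aged libraries were above all young ones, by 0.85 on the log2 scale (SE 0.18, limma adjusted p = 0.0152). The call was lost without aged replicate 3 (0.64, limma adjusted p = 0.0563), without young replicate 3 (0.81, 0.0518), with the neutrophil score (0.60, 0.0777), with no filter (0.85, 0.0641) and with own groups only (0.85, 0.0568). Of 10 class IIa deacetylases and MEF2 cofactors, 6 were tested and none was called, with medians of -0.02 and 0.17.

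All 19 genes on a list of known targets of these factors in microglia or macrophages were tested, of which 8 are also on the list of microglial markers and 1 on that of neutrophils. With age 7 were called lower and none higher, where 2.99% and 3.16% of all tested genes were. The median log2 fold change was -0.41, against -0.05 over all tested genes. The 7 were P2ry12, Cx3cr1, Siglech, Sparc, Mertk, Tgfbr1 and Tmem119, with log2 fold changes of -0.86 to -0.46. P2ry12, a purine receptor of resting microglia, was at 1092 to 1430 RPM in young and 599.99 to 871 RPM in aged libraries. Siglech, a lectin of microglia, was at 126 to 150.5 RPM in young and 87.1 to 93.3 RPM in aged libraries. Csf1r, the receptor on which microglial survival depends and a classical PU.1 target, missed the threshold at -0.49 on the log2 scale (limma adjusted p = 0.0550). The call of P2ry12 held when any library was left out, with limma adjusted p of at most 0.0324, and was lost with no filter (0.0744) and with quantile normalization, where the log2 fold change was -0.50 (0.0898). The other 6 lost theirs without young replicate 1, with limma adjusted p of 0.0517 for Cx3cr1, 0.0692 for Siglech, 0.0662 for Sparc, 0.173 for Mertk, 0.170 for Tgfbr1 and 0.179 for Tmem119. Without aged replicate 3, Sparc, Mertk, Tgfbr1 and Tmem119 were not called (limma adjusted p = 0.0657 to 0.132). Scaled to microglial markers, P2ry12 alone of the 7 was called, although 8 of the 19 targets are themselves among those markers.

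Between the libraries labelled deltaMG and control, the target list had a median of -0.07, against -0.02 over all tested genes. It gave 1 call, where 3.78% of all tested genes were called. Cx3cr1, the fractalkine receptor, was at 398 and 437 RPM under the control label and at 965 and 1285 RPM under the deltaMG label, which is 1.41 higher on the log2 scale (limma adjusted p = 0.000158). The young libraries were at 1068 to 1174 RPM and the aged at 689 to 741 RPM, so that both control libraries stood below the other 8 and the deltaMG libraries lay on either side of the young range. The other 18 targets were not called.

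The genes whose profile over the 10 libraries was most like that of a member were found among the 681 genes whose mean reached 50 RPM. Likeness was the root mean square difference of centred log2 values, given as a description, since all 10 values of a gene share the same libraries and their makeup. Dip2b and Zfhx3 were closest to Sall1, at 0.070 and 0.092 log2 units, where the median candidate was at 0.281. Cttnbp2nl and Elmo1 were closest to Mef2c, at 0.062 and 0.097. Qk and Dst were closest to Mef2a, and Irf2bp2 and Sepp1 to Maf, at 0.053 to 0.096. Wdfy3 was among the closest to Sall3, at 0.080. Ptprj and Trip12 were closest to Runx1, Gna13 and Fbxl20 to Irf8, and Camk1d and N4bp1 to Cebpa, at 0.075 to 0.110. Spi1 had no match as close among these candidates, with Slk and Ncor1 nearest at 0.180 and 0.182, where the median candidate was at 0.350. Its own mean of 19.7 RPM was below the 50 RPM asked of candidates, so genes at its level were not searched.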

How the data were processed

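Per the labels' protocols, RNA of bead-isolated microglia was amplified by NuGEN Ovation and made into Ion Xpress Plus libraries. GRCm38, mm10 and FastQC are named, per the submitters' processing notes. Not given in the sources used here were the aligner, counter, annotation, strand setting and scaling. Reads of overlapping antisense genes therefore cannot be told apart, which touches 0.88% to 5.34% of the exon bases of Mef2a, Runx1, Maf and Cebpa.

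The unit of the deposited values was taken to be RPM, because 94.3% to 94.6% of the low values of a library (up to 500 reads) lay within 0.05 of whole multiples of a step worth 0.101 to 0.164 RPM, above a constant of 0.0001. The rest were fractions, so no count model was used. Genes reaching 10 RPM in 2 or more of the 10 libraries were fitted with limma 3.58.1 in R 4.3.3 on log2(RPM + 1). The model held 4 groups with a common spread (6 residual degrees of freedom), and the prior variance followed the mean. Benjamini-Hochberg adjusted p under 0.05 over 4151 genes defined a call, in two-sided tests. Coordinates and exon lengths are from GENCODE M21, promoters from RefSeq, and figures were drawn with matplotlib 3.10.9.

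On simulated data with 3952 genes tested, calls recovered 38% of 1.5-fold and 91% of 2-fold changes in the ageing comparison, and 17% and 69% between the libraries labelled deltaMG and control, with 9 and 3 false calls among 138 and 89. Alternatives covered the filter, pseudocount, scaling, libraries in the fit, replicate block, variance trend, array weights, neutrophil score, threshold and leaving out each library. Scaling to microglial markers was added after the data were seen.

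The members, the other gene lists and the marker lists were chosen with earlier results of these data known. The text names all 9 members, up to 6 genes per list with the smallest p, and the 2 most similar genes for each member, of which some are not reported here. Tmem119 and Csf1r fall outside this rule and were chosen after their values were seen. So were the ETS core and TATA box motifs.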

Additional observations from a re-analysis of the deposited data

Results flagged for a closer look

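The difference between the libraries labelled deltaMG and control was compared with the difference between aged and young libraries by an interaction term, and 199 of all tested genes had effects that differed at a limma adjusted p under 0.05. None of the 9 transcription factors was among them. Of the related genes, Hif1a had a difference of effects of -1.93 (limma adjusted p = 0.000436), with a log2 fold change of -1.84 between the libraries labelled deltaMG and control. Cx3cr1 had a difference of effects of 2.05 (limma adjusted p = 2.33e-05). It was 0.63 lower in aged than in young libraries and 1.41 higher under the deltaMG than under the control label. For both genes the control libraries stood apart from the other 8, with Hif1a above and Cx3cr1 below them, and Rab7 gave no check of these labels. No group had the 4 libraries needed to look for single libraries that lie far from their group.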

How the results depend on the processing

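For the members, 182 of 204 alternative values kept their side of the threshold in the ageing comparison, 204 of 204 between the libraries labelled deltaMG and control, and 188 of 195 for the difference of effects. The 22 lost calls were those of Sall1 and Mef2c, which passed in 13 and 11 of 23 settings, and no called value changed sign. Both calls were lost with no filter, with own groups only, with no variance trend, with the neutrophil score and with scaling to microglial markers (limma adjusted p = 0.0510 to 0.741), and that of Sall1 also with quantile normalization (0.0518). Signs that turned, 23, 15 and 16 in the 3 comparisons, were all of uncalled values.

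Over all genes, 255 were called with age, 157 between the libraries labelled deltaMG and control and 199 for the difference of effects. These counts were 119, 86 and 101 with no filter, 116, 62 and 86 with a minimum of 50 RPM in 3 libraries, and 445, 287 and 348 at a threshold of 0.1. With own groups only they were 121 and 510. With the replicate number as a block, the replicate block, they were 140, 96 and 151. Array weights gave 357 between the libraries labelled deltaMG and control and 344 for the difference, and the neutrophil score gave 468 for the difference. Leaving out single libraries gave 96 (without young replicate 1) to 422 (without aged replicate 2) with age, 25 (without labelled control replicate 1) to 317 (without aged replicate 3) between the libraries labelled deltaMG and control, and 71 (without labelled control replicate 1) to 264 (without aged replicate 2) for the difference. The cause was not tested.

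With age 131 genes were called higher and 124 lower, which was 221 and 107 with median-of-ratios scaling and, of 1113 calls, 1099 and 14 with scaling to microglial markers. The balance also moved with the filter, to 32 higher and 84 lower at a minimum of 50 RPM and 86 and 33 with no filter, and was 166 and 195 with array weights. Scaling to microglial markers gave 89 higher and 54 lower between the libraries labelled deltaMG and control (50 and 107 as reported), and 39 and 175 for the difference (88 and 111).

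Labels do not say that replicate numbers pair libraries. Same-numbered aged and young libraries deviated from their group means with correlations of -0.39 to -0.14, and the 2 pairs labelled deltaMG and control with 0.12 each. The block fit kept the call of Sall1 (limma adjusted p = 0.0377) and not that of Mef2c (0.0787). With 2 or 3 libraries a group, changes well under 2-fold are often missed. Where a group was left with 1 library, it was assumed to vary like the others.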
